A study of Mus musculus with 4 samples.

Results

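Placental growth factor (Pgf), the 4 VEGF ligand genes Vegfa, Vegfb, Vegfc and Vegfd, the receptor genes Flt1, Kdr and Flt4, and the neuropilin genes Nrp1 and Nrp2 were followed through an RNA-seq experiment on mouse muscle stem cells (MuSCs). These 10 genes were picked by name from an expression table of 55267 gene entries. By name, 9 rows were found, and Nrp1 was read from the entry that carries the name of a microRNA inside it, Mir1903. Of the 10 genes, 6 reached a mean TPM of 1 over the libraries, where TPM is transcript abundance scaled for transcript length and library size, and entered the comparison. The set was proposed with the BMP6 result already known, so the differences of its members after BMP6 are given as descriptions and not as tests.

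The cells came from muscles of female, 9-week-old mice of the genotype C57BL/6N(Tg(Pax7-EGFP)Tajb), in which the Pax7 promoter drives EGFP, and had been sorted for GFP after a day in culture. All cells grew at 3% O2 and then spent 6 h without serum, in both groups with 200 ng/mL of the soluble receptor BMPR1A-Fc, which binds BMPs left in the medium. They then received 100 ng/mL BMP6 (2 libraries) or the vehicle of 4 mM HCl with 0.1% BSA (2 control libraries) for 1 h. The labels give the replicate number as the batch, so that BMP6 replicate 1 and control replicate 1 form a pair, as do the libraries numbered 2; whether animals were pooled is not given in the sources used here.

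VEGF family ligands are secreted dimers that drive the growth of blood and lymph vessels. PlGF, the product of Pgf, and VEGF-B bind FLT1 (VEGFR1), while VEGF-A binds FLT1 and KDR (VEGFR2). VEGF-C and VEGF-D bind FLT4 (VEGFR3), and processed VEGF-C also binds KDR. Neuropilins are co-receptors that hold several of these ligands and also serve semaphorins. In muscle, stem cells lie close to capillaries, and VEGF-A made by muscle cells is known to act on the endothelium.

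The libraries held between 108.1 and 112.0 M reads, as rebuilt from coverage, transcript length and a read length of 100 bases, and their log2(TPM + 1) values correlated across genes with r between 0.988 and 0.995. All 6 direct BMP targets used as a check were higher after BMP6 (median log2 difference 2.13), and 5 of them passed an adjusted p of 0.1 (limma with Benjamini-Hochberg adjustment). Smad6, which codes for an inhibitory SMAD, did not pass (adjusted p = 0.270; 0.00169 with the replicate as a block). All 8 muscle markers were expressed, from Pax7 at 8.29 to 11.7 TPM to Myog, a marker of differentiation, at 4400 to 5472 TPM over the libraries. None of the 8 endothelial markers reached a mean TPM of 1. Their summed level was 0.496 to 0.856 TPM with BMP6 and 0.439 to 0.865 TPM in controls. The highest value of any of them was 0.293 TPM, for Esam. Of further marker lists, 4 of 6 fibroblast, 3 of 6 pericyte and smooth muscle, 2 of 3 lymphatic and 1 of 5 immune markers reached a mean TPM of 1. The summed fibroblast markers were 290.6 to 406.2 TPM with BMP6 and 330.2 to 402.6 TPM in controls. Nearly all of this came from Col1a1, Col1a2 and Col3a1, while Pdgfra and Lum were at most 0.270 TPM. The pericyte list summed to 2916 to 2956 TPM with BMP6 and 3107 to 3260 TPM in controls. Acta2 alone held 2906 to 2947 TPM with BMP6 and 3100 to 3251 TPM in controls, while Rgs5, Myh11 and Kcnj8 were at most 0.879 TPM. The part of cells of these types in the values below was not tested. In these bulk samples fewer cells of a type and less RNA per cell cannot be told apart.

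**Figure D1:**
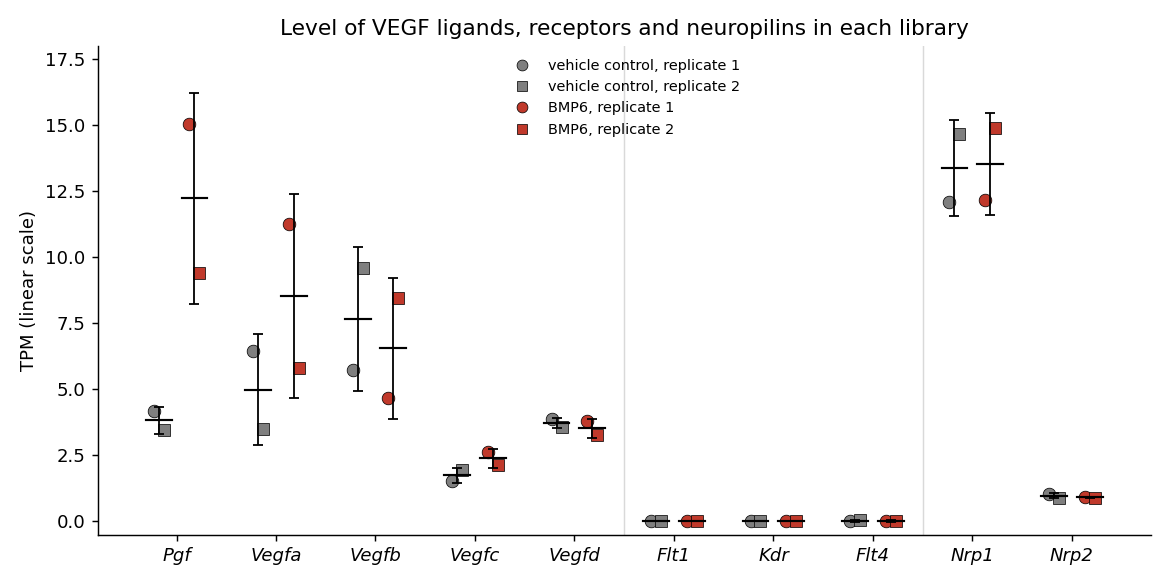
TPM of each gene (vertical axis, linear) in the 4 libraries; circles are replicate 1 and squares replicate 2, grey is control and red BMP6, with horizontal lines for the mean and bars for the SD (n = 2). Pgf lay at 9.41 and 15.1 TPM with BMP6 and at 3.45 and 4.19 TPM in controls, while Flt1, Kdr and Flt4 lay at or near 0 in every library.

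Among the ligands, Pgf had the largest difference. Its level was 15.1 TPM in BMP6 replicate 1 and 9.41 TPM in BMP6 replicate 2, against 4.19 TPM in control replicate 1 and 3.45 TPM in control replicate 2. Both BMP6 libraries were above both controls. These levels rest on about 1960 and 1174 rebuilt reads with BMP6 and on 556 and 441 in controls. The mean was 12.2 ± 3.99 TPM with BMP6 and 3.82 ± 0.524 TPM in controls (SD, n = 2), a ratio of 3.20. Within the pairs the ratio of TPM was 3.59 for replicate 1 and 2.72 for replicate 2.

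Expressed as log2(TPM + 1), a scale that shrinks the changes of weakly expressed genes, the difference of Pgf was 1.43 with an SE of 0.23, or of 0.12 when the replicate number was fitted as a block. Both SE values are moderated by limma toward the spread of the other entries, so they are not the spread of the Pgf values alone. The difference of Pgf ranked 24 among those of the 13128 entries tested. Without the block Pgf did not pass the call rule of at least a 2-fold change at an adjusted p under 0.1, and with the block it did. It also passed without the block when BMP6 replicate 2 was left out, with a log2 difference of 1.74, and then the lone BMP6 library is assumed to vary like the controls. None of the 6 members was called without the block, where 0.206% of all entries tested were called higher and 0% lower; with the block 1 of 6 was called, where 0.312% of all entries were called higher. Since the members were proposed from this contrast, nothing is read from these shares.

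Pgf lies on the minus strand at chr12:85213409-85224564 (GRCm39). The 250 bases before its transcript start, chr12:85224565-85224814, are printed in the direction of transcription because Pgf is the member with the largest difference. Capitals mark GTCT, the short core bound by SMAD proteins, and CACGT, the reverse complement of the core bound by hypoxia-inducible factors; both strands were searched, and the marked letters do not overlap.
Pgf promoter: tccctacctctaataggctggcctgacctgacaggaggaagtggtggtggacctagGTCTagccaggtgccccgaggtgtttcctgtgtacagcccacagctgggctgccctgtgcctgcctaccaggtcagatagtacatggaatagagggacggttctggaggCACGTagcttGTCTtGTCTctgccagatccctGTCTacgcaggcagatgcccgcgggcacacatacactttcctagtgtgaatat

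This window held 4 matches to GTCT or AGAC. Among the same windows of 21757 protein-coding genes, 83.4% held at least 1 such match and 12.1% held at least 4. ACGTG or CACGT matched once in the Pgf window and in 17.0% of all windows. The palindrome GGCGCC, found in GC-rich BMP response elements, had no match in the Pgf window and was present in 9.32% of all windows. GC content was 56.8% against a median of 53.2%, with 6 CpG against a median of 8. The Vegfa window held 3 matches to GTCT or AGAC and no ACGTG or CACGT, and the Vegfb window 1 and 2. A match to these letters is no evidence of binding.

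The authors' annotation holds 2 Pgf transcripts with the same splice sites, which differ by 4 bases at their 3′ end, so the split of reads between them carries no information on protein forms. Both contain exon 6, at chr12:85216132-85216191 on the minus strand. It is shown because it codes for the stretch rich in arginine and lysine that marks the heparin-binding form of PlGF.
Pgf exon 6: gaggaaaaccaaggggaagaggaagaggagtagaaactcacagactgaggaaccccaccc

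No other annotated gene shared a stretch of at least 100 bases at 95% identity with Pgf, and no gene on the other strand overlapped its exons. The libraries were unstranded, so reads from a gene and an antisense partner cannot be told apart; Pgf has no such partner in the annotation.

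Vegfa (chr17:46327919-46343295, minus strand), the main ligand of vessel growth, was also higher with BMP6 in both pairs, but less than Pgf. It was at 11.3 TPM in BMP6 replicate 1, 5.81 TPM in BMP6 replicate 2, 6.46 TPM in control replicate 1 and 3.51 TPM in control replicate 2. The groups overlapped, since BMP6 replicate 2 lay below control replicate 1. The ratio was 1.74 in the first pair and 1.66 in the other, and the mean ratio was 1.71. The log2 difference was 0.66 with an SE of 0.35 without the block and of 0.10 with it. Single libraries moved it: it was 0.23 without BMP6 replicate 1, 1.08 without BMP6 replicate 2, 1.02 without control replicate 1 and 0.29 without control replicate 2. With the block Vegfa passed the adjusted p of 0.1, as did Pgf, making 2 of 6 members; of all entries 1.23% passed with the block in the higher direction and 1.64% in either. Vegfa stayed under a 2-fold change, and without the block it did not pass.

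**Figure D2:**
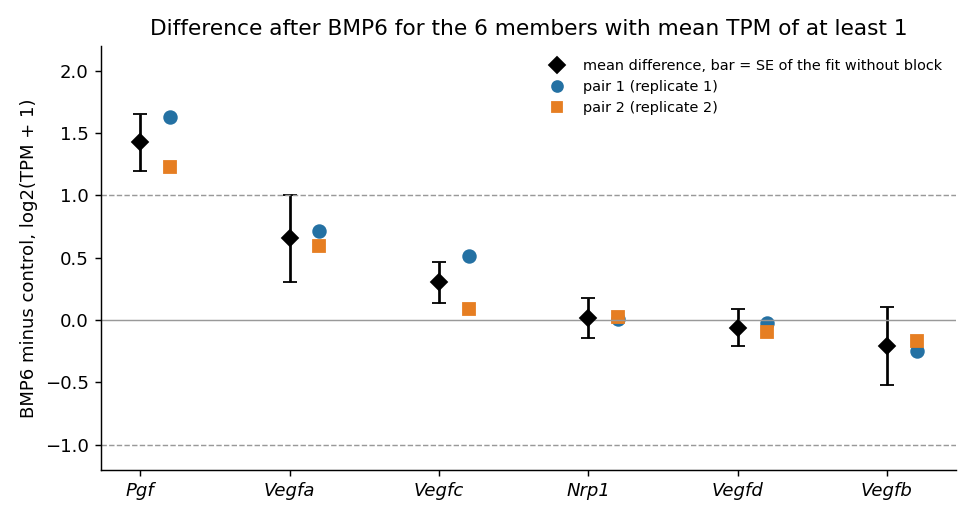
BMP6 minus control on the log2(TPM + 1) scale for the 6 genes tested; diamonds are the mean difference with the SE of the fit without the block, circles the first pair and squares the other, and dashed lines a 2-fold change. Pgf lies at 1.63 and 1.22 in its pairs and Vegfa at 0.72 and 0.60, while Nrp1, Vegfd and Vegfb lie between -0.25 and 0.02.

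Much of the spread of Vegfa ran between the replicate numbers. Replicate 1 exceeded replicate 2 by 0.85 with BMP6 and by 0.73 in controls on the log2 scale. Both differences were larger than the mean difference after BMP6 of 0.66, and their mean was 0.79. Of the entries tested, 1.08% had a mean replicate difference at least that large in either direction, with both groups agreeing in sign. Some genes known to respond to low oxygen also differed between the replicates. Of the 16 tested genes of the list of HIF factors and hypoxia targets, 9 were higher in replicate 1 in both groups, against 30.7% of all entries, with a median of 0.21 against -0.03, and the other 7 were not. The 2 with the largest replicate differences, chosen after their values were seen, were Car9 and Ndrg1. Car9, a carbonic anhydrase, was at 237.6 and 104.7 TPM with BMP6 and at 255.6 and 119.4 TPM in controls (replicate 1 first), and Ndrg1 was at 133.8 and 60.8 TPM with BMP6 and at 135.9 and 62.9 TPM in controls. Hif1a, which codes for the oxygen-regulated subunit of HIF-1 and was also picked afterwards, went slightly the other way, with 58.0 and 61.1 TPM with BMP6 and 55.3 and 57.4 TPM in controls. The part of these differences in the Vegfa level was not tested.

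Vegfa transcripts differ by exons 6 and 7, which code for the domains that hold the protein to heparan sulfate and neuropilins. The form without both gives VEGF120, the form with exon 7 gives VEGF164, and the form with both gives VEGF188. The junctions that tell them apart are shown with the end of exon 5 in lower case and the start of the next exon in capitals (Vegfa, minus strand of chromosome 17, GRCm39).
VEGF120 junction (exon 5 to exon 8): aacaaagccagaaaaATGTGACAAGCCAAG
VEGF164 junction (exon 5 to exon 7): aacaaagccagaaaaTCACTGTGAGCCTTG
VEGF188 junction (exon 5 to exon 6): aacaaagccagaaaaAAAATCAGTTCGAGG
The exons themselves lie at chr17:46333203-46333274 (exon 6) and chr17:46331917-46332048 (exon 7).
Vegfa exon 6: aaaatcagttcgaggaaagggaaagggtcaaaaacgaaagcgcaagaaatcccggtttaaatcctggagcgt
Vegfa exon 7: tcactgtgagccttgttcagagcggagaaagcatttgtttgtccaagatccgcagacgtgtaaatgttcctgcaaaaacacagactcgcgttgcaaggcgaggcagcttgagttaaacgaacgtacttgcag

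The share of Vegfa TPM that the authors' quantification assigned to the VEGF120 form was 53.5% and 53.1% in BMP6 replicates 1 and 2, and 38.1% and 22.1% in the controls. The VEGF164 form took 43.9% and 43.8% with BMP6 and 61.6% and 72.6% in the controls. Neither share overlapped between the groups, and how often shares of other genes separate in this way was not tested. The VEGF188 form was between 0.30% and 5.27% in all libraries, and its order was mixed.

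Depth over the exons gave a weaker difference than the assigned shares, and the measures also differed in level. Exon 7 had 38.1% and 33.3% of the depth of exon 3 with BMP6, and 47.8% and 35.1% in controls. The value was lower with BMP6 within each pair, but control replicate 2 lay between the BMP6 libraries. In that library the mean depth of exon 7 was 12.4, the lowest of the 4. There the VEGF164 form alone was assigned 72.6% of Vegfa TPM, against the 35.1% for exon 7 depth. In control replicate 1 it was assigned 61.6% against 47.8%. With BMP6 the measures were closer, 43.9% against 38.1% in replicate 1 and 43.8% against 33.3% in replicate 2. The cause of this disagreement was not tested. Both measures come from the same reads and the same quantification, and neither counts reads across the junctions. The depth of an exon was summed over the Vegfa transcripts to which that quantification gave coverage, so it is not separate from the assignment. On the other strand, Gm65021 overlaps 64 exon bases of Vegfa.

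**Figure D3:**
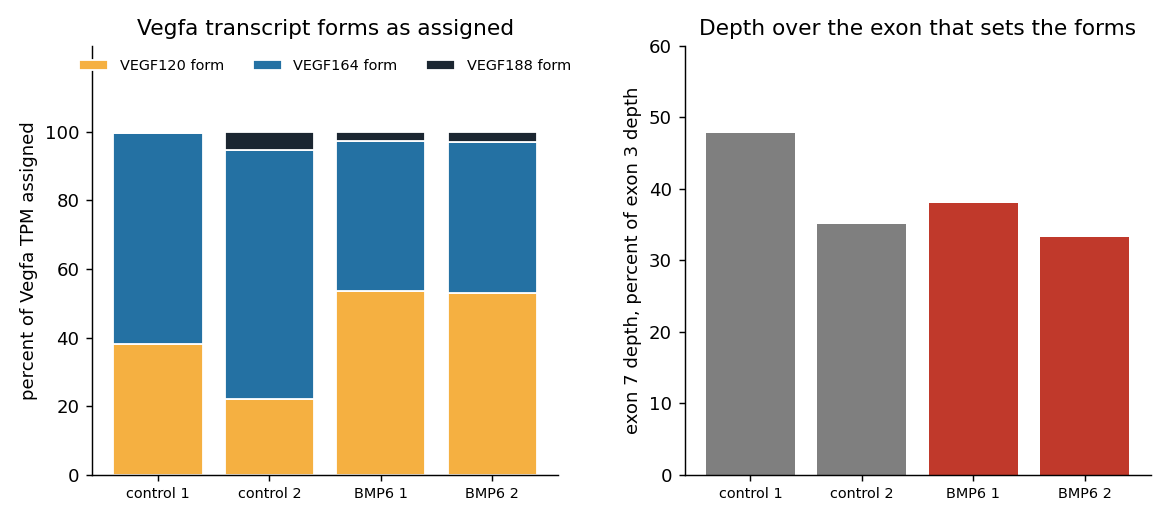
Left, the percent of Vegfa TPM assigned to the VEGF120, VEGF164 and VEGF188 forms in each library, 1 bar per library. Right, the mean depth of exon 7 as a percent of that of exon 3, both summed over the Vegfa transcripts of the same quantification. The VEGF120 share was at least 53.1% in both BMP6 libraries and at most 38.1% in controls, while the depth ratio overlapped between the groups.

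Vegfb (chr19:6959841-6965019, minus strand), whose product binds FLT1 as PlGF does, was slightly lower with BMP6 in both pairs. Its level was 4.66 TPM in BMP6 replicate 1 and 8.45 TPM in BMP6 replicate 2, against 5.73 and 9.59 TPM in control replicates 1 and 2. The groups overlapped widely, and replicate 2 was high in both. The log2 difference of -0.21 was smaller than its SE of 0.31. This difference was 0.16 without BMP6 replicate 1 and 0.12 without control replicate 2, but -0.58 without BMP6 replicate 2 and -0.53 without control replicate 1. Here the replicates differed in the direction opposite to Vegfa, by -0.74 with BMP6 and -0.65 in controls, with a mean of -0.70. A mean replicate difference at least that large in either direction, with both groups agreeing in sign, was reached by 1.59% of the entries.

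The 2 Vegfb transcripts differ by the start of an exon, which is 101 bases longer in the transcript for VEGF-B186, the freely diffusing form, than in that for VEGF-B167. The added stretch, printed in capitals throughout, lies at chr19:6962864-6962964 on the minus strand.
Vegfb extension: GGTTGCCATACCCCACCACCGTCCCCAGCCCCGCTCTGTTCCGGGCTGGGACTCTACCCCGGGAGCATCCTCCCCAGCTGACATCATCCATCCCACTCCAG
The VEGF-B186 form took 52.7% and 48.0% of Vegfb TPM with BMP6 and 58.6% and 56.1% in controls. Both BMP6 values were below both controls, by 5.91 percentage points in the first pair and 8.16 in the other. These are assigned shares, and depth over the added stretch was not checked. How often shares of other genes separate in this way was not tested.

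Vegfc (chr8:54530641-54640131, plus strand) and Vegfd (chrX:163156374-163185646, plus strand), the ligands best known from lymph vessels, were expressed at low levels. For Vegfc the BMP6 libraries had 2.64 and 2.13 TPM, replicate 1 first, and the controls 1.54 and 1.94 TPM. The groups did not overlap, but the second pair was nearly level, with a ratio of 1.10 against 1.71 in the first, and the log2 difference was 0.30 with an SE of 0.17. It was 0.20 without BMP6 replicate 1 and also 0.20 without control replicate 1, and 0.41 without BMP6 replicate 2 and also 0.41 without control replicate 2. Vegfc is overlapped on the other strand by the long non-coding RNA gene Gm64018 over 274 exon bases, and reads from the pair cannot be told apart here. Vegfd was at 3.79 and 3.28 TPM with BMP6 and at 3.87 and 3.58 TPM in controls, with a log2 difference of -0.06 and an SE of 0.15. Its groups overlapped, and the difference was within its error.

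Taking the 6 genes tested, 4 were higher and 2 lower with BMP6 in both pairs, while 35% of all entries were higher and 25.7% lower in both pairs. Of the 4, Nrp1 was nearly level, with pair differences of 0.01 and 0.02. The Nrp1 transcript alone was at -0.0006 in the first pair. The groups did not overlap for Pgf and Vegfc, both higher, and for no member in the lower direction, beside 16.6% of all entries higher and 11.6% lower.

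The 5 ligand genes together reached 37.4 and 29.1 TPM in the BMP6 libraries and 21.8 and 22.1 TPM in the controls. Without Pgf the sums were 22.4 and 19.7 TPM with BMP6 and 17.6 and 18.6 TPM in controls. Pgf made up 40.2% and 32.4% of the ligand sum with BMP6, and 19.2% and 15.6% in controls. In controls Vegfb (26.3% and 43.4%) had a larger share than Pgf in both replicates, and with BMP6 the share of Pgf was above that of each other ligand in both replicates.

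**Figure D4:**
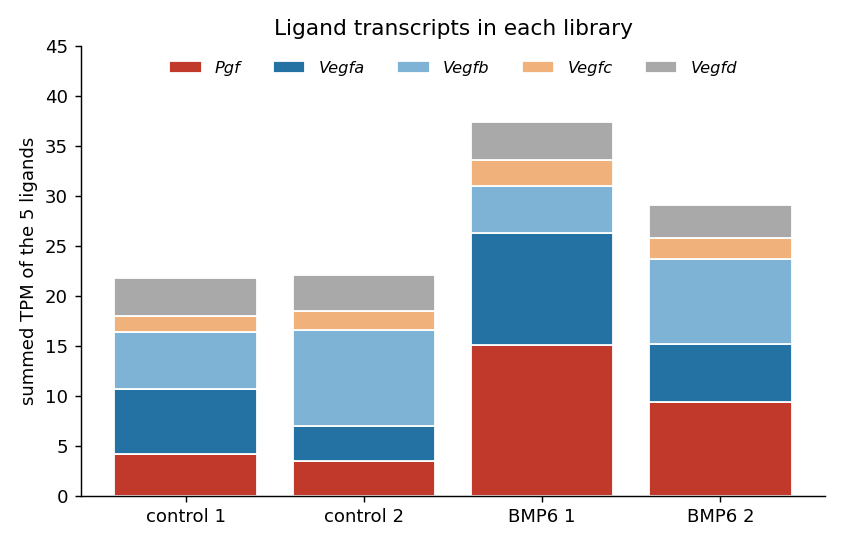
Summed TPM of the 5 ligand genes in each library, with 1 colour per gene; each bar is 1 library. The sum was 21.8 and 22.1 TPM in controls and 37.4 and 29.1 TPM with BMP6, and the Pgf segment grew from at most 4.19 TPM to at least 9.41 TPM.

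The signalling receptors of these ligands, Flt1 (chr5:147498414-147662821, minus strand), Kdr (chr5:76093487-76139118, minus strand) and Flt4 (chr11:49500090-49543566, plus strand), were at or near 0. Kdr, the main receptor of VEGF-A on endothelium, was listed at 0 in all 4 libraries. Flt1, the receptor of PlGF and VEGF-B, was listed at 0.00857 TPM in BMP6 replicate 1, which is about 3.70 rebuilt reads, and at 0 in the other libraries; its soluble form was listed at 0 in each. Flt4 was at 0.0353 TPM in BMP6 replicate 1 and 0.0373 TPM in control replicate 2, and at 0 in the others. Flt4 shares 145 exon bases with Gm73519 on the other strand. These receptors were below the level needed for the comparison, so no difference is given. Their low levels went together with the low endothelial markers given above, but the lymphatic markers were not all low. Over the libraries Prox1 was at 11.3 to 13.3 TPM and Pdpn at 101.9 to 127.7 TPM, while Lyve1 was at most 0.078 TPM. Which cells gave these values was not tested.

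Nrp1 (chr8:129085722-129229844, plus strand) was the most abundant member in controls. Its entry was at 12.2 TPM in BMP6 replicate 1 and 14.9 TPM in BMP6 replicate 2, and the controls with these numbers were at 12.1 and 14.7 TPM. The libraries ordered by replicate number and not by treatment, and the log2 difference was 0.02 with an SE of 0.16. The Nrp1 transcript alone gave 11.8 and 14.5 TPM with BMP6 and 11.8 and 14.3 TPM in controls, so the name of the entry made little difference to its level. Nrp1 shares 177 exon bases with Gm64234 and 39 with Gm32643, both on the other strand. Nrp2 (chr1:62742444-62857854, plus strand) was at 0.932 and 0.894 TPM with BMP6 and at 1.04 and 0.906 TPM in controls, just under the filter of a mean of 1 TPM. Its groups overlapped, and it shares 383 exon bases with Gm29083 on the other strand. The share of Nrp2 ending in the farther last exon was 52.5% and 22.4% with BMP6 and 32.4% and 35.5% in controls, with no common direction.

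TPM is scaled per length, so levels can be set side by side between genes. By mean control TPM the order was Nrp1 (13.4), Vegfb (7.66), Vegfa (4.98), Pgf (3.82), Vegfd (3.72), Vegfc (1.74) and Nrp2 (0.975). The control values of Vegfb and Vegfa overlapped, as did those of Vegfa and Pgf and those of Pgf and Vegfd, so these neighbours were not told apart. With BMP6 the order by mean TPM was Nrp1 (13.5), Pgf (12.2), Vegfa (8.54), Vegfb (6.56), Vegfd (3.54), Vegfc (2.39) and Nrp2 (0.913). Pgf thus stood below Vegfb and Vegfa in controls and above them with BMP6, while its BMP6 values overlapped those of both Nrp1 and Vegfa.

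The genes whose pattern over the 4 libraries was nearest to that of Pgf were found by the Euclidean distance between log2(TPM + 1) values, each gene centred on its own mean. They were Snai1 (distance 0.279), a transcriptional repressor of the Snail family, Id2 (0.353), an inhibitor of bHLH factors, Nfkbia (0.376), the inhibitor of NF-kB, Hey1 (0.415), a Notch effector, and Msx1 (0.474), a homeobox factor. For Snai1 the BMP6 libraries had 134.5 and 102.9 TPM and the controls 43.8 and 46.3 TPM. Msx1, the least abundant of them, was at 4.13 and 3.29 TPM with BMP6 and at 1.31 and 1.23 TPM in controls; of these 5 genes it alone was not called without the block, and it was called with it. In each of these 5 genes, as in Pgf, both BMP6 libraries were above both controls. The choice by a small distance to Pgf fixed this in advance, so nothing is read from it. The likeness rests on 4 values a gene.

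The other genes of the pathway came from lists. Over 5 lists of 91 genes, 72 were tested and none passed the adjusted p of 0.1 in either direction, without the block or with it (limma, Benjamini-Hochberg). None of them had an unadjusted p under 0.05 without the block, and the lowest adjusted p with the block was 0.102. With voom on the rebuilt reads, 0 passed as well. For comparison, 0.236% of all entries passed the adjusted p in the higher direction and 0.00762% in the lower without the block, and 1.64% passed in either direction with it, so that a count of 0 of 72 is near the background and nothing particular to these genes is read from it.

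**Figure D5:**
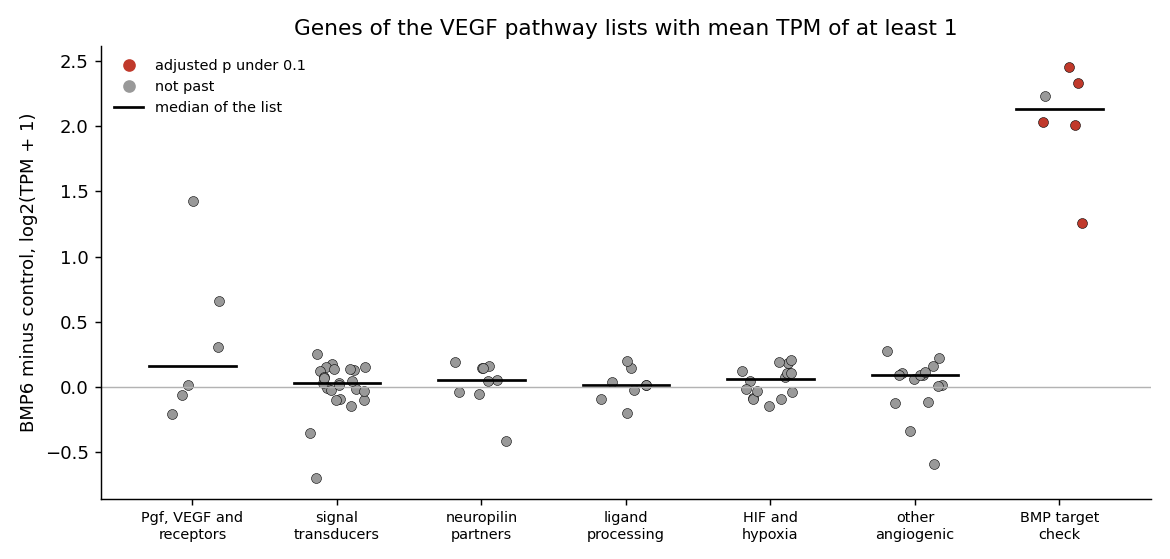
BMP6 minus control on the log2(TPM + 1) scale for each tested gene of the lists; each point is a gene, red marks an adjusted p under 0.1 and lines are medians. Pgf is the highest point of its own list at 1.43, the medians of the 5 pathway lists lie between 0.02 and 0.09, and the BMP target check lies at a median of 2.13.

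Signal transducers below the receptors had a median log2 difference of 0.03, with 14 genes higher and 10 lower of 24 tested. Hspb1, a small heat shock protein phosphorylated downstream of p38, had the highest mean control level, at 775.0 and 753.1 TPM with BMP6 and at 813.8 and 823.5 TPM in controls. Akt1, a kinase of the survival pathway, had the largest difference at -0.70 with an SE of 0.44. It was at 84.8 TPM in BMP6 replicate 1 and between 211.8 and 254.2 TPM in the other 3 libraries, so a single library set this value. Without BMP6 replicate 2, Akt1 was at a difference of -1.44, which rests on that low library as the lone BMP6 value.

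Semaphorin and plexin partners of the neuropilins had a median of 0.06, with 6 higher and 3 lower of 9. Gipc1, which binds the tail of NRP1, was at 102.8 and 105.9 TPM with BMP6 and at 104.2 and 112.4 TPM in controls. The semaphorin receptor gene Plxna1 was at 1.91 and 4.07 TPM with BMP6 and at 3.33 and 5.09 TPM in controls, and its groups overlapped. Genes that mature, bind or release VEGF ligands had a median of 0.02, with 5 higher and 3 lower of 8. The convertase Pcsk6 was at 175.3 and 194.1 TPM with BMP6 and at 172.4 and 205.2 TPM in controls, and the heparanase gene Hpse had the largest difference, 0.20 with an SE of 0.22.

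The hypoxia list had a median of 0.06, with 9 higher and 7 lower of 16. Ldha, lactate dehydrogenase A, was at 6785 and 5895 TPM with BMP6 and at 7505 and 6093 TPM in controls. Ankrd37, a target of hypoxia-inducible factors, was at 53.2 and 49.3 TPM with BMP6 and at 43.6 and 44.8 TPM in controls, a log2 difference of 0.21 with an SE of 0.10; its groups did not overlap, but it did not pass the test. Other angiogenic ligands and receptors had a median of 0.09, with 11 higher and 4 lower of 15. The receptor gene Fgfr1 had the highest mean control level, at 41.4 and 40.0 TPM with BMP6 and at 41.2 and 37.0 TPM in controls. Angptl4, a secreted inhibitor of lipoprotein lipase, had the largest difference, -0.59 with an SE of 0.26: it was at 1.37 and 1.98 TPM with BMP6 and at 2.18 and 4.05 TPM in controls, with groups that did not overlap, and did not pass the test. The median over all entries tested was 0.02.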

How the data were processed

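PolyA RNA of 2 BMP6 and 2 control MuSC cultures was sequenced from unstranded Smart-seq2 libraries. The authors aligned reads to GRCm39 with STAR 2.7.11a, handled alignments with SAMtools 1.17 and assembled and quantified transcripts with StringTie 2.2.1. The authors deposited TPM and FPKM per gene entry and per transcript, and coverage as mean depth, which is a signal not scaled to library size; no replicates were pooled, and columns of samples not used numbered 0.

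log2(TPM + 1) was compared with limma 3.58.1 in R 4.3.3 (two-sided, trend) on the 13128 entries whose TPM averaged 1 or more; no block was fitted, and calls needed an adjusted p under 0.1 and a fold of at least 2 or at most 0.5. The study tested counts; TPM needed a test on a log scale. Reads were rebuilt as coverage times length over 100 bases. The SD measures the spread between these libraries, described as biological replicates. Each SE comes from the moderated fit of limma, which draws the spread of a gene toward a trend over all entries tested. The replicate number is the batch in the labels, and libraries with the same number departed together from the means of their groups (r = 0.563 across genes), so the fit with the replicate as a block is given where it changed the call of a result reported here. Sequences were read from GRCm39 at the authors' coordinates, where 277 of 277 introns of the member transcripts had GT-AG or GC-AG ends. Promoter windows of other genes start at GENCODE canonical transcripts. Copies were searched with blastn 2.17.0, and genes on the other strand were taken from the same GENCODE annotation.

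The members and lists were chosen with earlier results of these data known. All members were named. Of each pathway list, genes past the adjusted p were to be named, with the gene of the highest control level and that of the largest difference; the 5 entries nearest Pgf and 6 BMP targets were added. Another pseudocount, filter, unit, normalization, voom, the block and leaving out each library were tried.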

Additional observations from a re-analysis of the deposited data

How the results depend on the processing

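With 2 libraries a group, the spread is poorly known, and unstranded reads leave antisense overlaps unresolved. Counted over named genes only, the genes called higher numbered 24; they numbered 15 with a pseudocount of 5, 1 (Ccn2) with no filter on low values, 15 when TPM had to average 5 or more, and 17 to 30 when each library was left out. The genes called lower by limma numbered 0 (1 where a raw p under 0.05 and the fold sufficed), and 1 to 7 when each library was left out. With the replicate block, which takes the replicate number as the pairing, 36 genes were called higher, 1 gene lower (Serpinb1c, named after its values were seen, as was Ccn2) and 1 member (Pgf). The members called were 0 to 1 when each library was left out, and the 1 was Pgf, without BMP6 replicate 2. The signal transducers past the adjusted p in the lower direction were 0 to 1 when each library was left out (Akt1, without BMP6 replicate 2). The block changed no call of the pathway lists. Over 12 alternatives the log2 difference ranged from 0.95 to 1.74 for Pgf, the lowest with a pseudocount of 5, and from 0.23 to 1.08 for Vegfa, whose lowest and highest values came without BMP6 replicates 1 and 2. It changed sign in 5 of 12 for Nrp1 and 2 of 12 for Vegfb. Over the 11 alternatives that kept them, Vegfc ranged from 0.13, with a pseudocount of 5, to 0.45, and Vegfd changed sign in 1. The cause of these shifts was not tested.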
